A study of Homo sapiens with 4 samples.

Results

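The insulin-like growth factor axis was taken as 10 genes: the ligand gene IGF2, the receptor genes IGF1R, INSR and IGF2R, the adaptor genes IRS1 and IRS2, and the binding protein genes IGFBP2, IGFBP3, IGFBP4 and IGFBP5. Every probe set annotated to exactly 1 of these symbols was a member, without regard to its values. This gave 28 of 54613 tested probe sets, and they stand for 9 of the 10 genes. IGF2 has no such probe set, because the 3 probe sets that carry its symbol also carry that of the overlapping read-through gene INS-IGF2.

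Each of the lines COLO-320DM and 320-IWR was represented by 2 arrays (GeneChip Human Genome U133 Plus 2.0), hybridized with its total RNA. COLO-320DM is an established colorectal cancer cell line and served as the parental control without drug selection. 320-IWR is a subline selected from COLO-320DM by long continuous culture with IWR-1, an inhibitor of the tankyrases, which are poly(ADP-ribose) polymerases that promote Wnt/β-catenin signaling by destabilizing Axin. The study also derived clones from 320-IWR, but whether the arrayed line was itself of 1 or many clones, and whether IWR-1 was in the medium at harvest, are not given in the sources used here. Both lines grew in the same serum-containing medium, which brings its own insulin-like growth factors. Whether replicates 1 and 2 of a line came from different cultures is not given in the sources used here, so a p-value reflects the spread between arrays alone, which may be technical.

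IGF1 and IGF2 act through the receptor tyrosine kinase IGF1R, and insulin and IGF2 act through the closely related INSR. The activated receptors phosphorylate the docking proteins IRS1 and IRS2, which recruit PI3 kinase and so feed AKT and mTORC1, while S6 kinase below mTORC1 is known to restrain the IRS proteins in return. IGF2R, also called the cation-independent mannose 6-phosphate receptor, carries IGF2 to lysosomes without signaling as a kinase. The IGFBP proteins hold the IGFs in the extracellular fluid and can either block or prolong their action. The axis is thus a textbook input to mTOR, a pathway that the study examined in 320-IWR cells.

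Intensities are given on the linear scale of the deposited values, whose array medians were 41.1 to 41.9, and no detection calls were used, so the distance of a dim value from background is unknown. Of the 28 member probe sets, 13 had a mean log2 value below that of the array medians. The precision is limited by the small number of arrays. Of the 8 colon epithelial markers, 6 exceeded an intensity of 64 (the mean of log2 values in at least 1 line), among them CDX2, KRT8 and KRT18, while EPCAM and CDH1 stayed at or below 35.1 on every array. Of these 8 markers, KRT8 and KRT18 fell and KRT20 rose by limma's test. The summed intensity of the epithelial markers was 5212 to 5460 in COLO-320DM cells and 3604 to 3622 in 320-IWR cells. The corresponding ranges were 163 to 172 and 149.5 to 158 for 5 neuroendocrine markers, 212 to 255 and 249 to 303 for 4 leukocyte markers, 367 to 371 and 344 to 359 for 5 fibroblast markers, and 115 to 119 and 119.8 to 128 for 4 endothelial markers. The part of these marker shifts in the results below was not tested. In bulk RNA, fewer cells with a transcript and less transcript per cell cannot be told apart.

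No member of the axis passed the test for a difference between the lines. A probe set is said to pass at a limma Benjamini-Hochberg adjusted p under 0.05, taken over all 54613 probe sets, together with mean log2 values that lie 2-fold or more apart. Of the 28 member probe sets 0 passed. Among all probe sets measured, 202 or 0.37% passed, 0.112% higher and 0.258% lower in 320-IWR cells. At an unadjusted p under 0.05, limma found 8 of the 28, 5 of them higher and 3 lower in 320-IWR cells, against 9.71% of all probe sets (4.6% higher and 5.11% lower). These 8 were the 2 probe sets of IRS2, 3 of INSR and 1 each of IGF1R, IGF2R and IGFBP5. In 13 of the 28 the arrays of the lines did not overlap, with 320-IWR higher in 8 and lower in 5, against 35.6% of all probe sets (19.5% higher and 16.1% lower). A difference of at least 2-fold was seen in 1 of the 28, a probe set of IGFBP5, against 1.94% of all probe sets. The median log2 fold change of the members (320-IWR minus COLO-320DM) was 0.03, and that of all probe sets was 0.01. For 20 of the 28 (71.4%, against 88.5% of all probe sets), the 95% confidence interval of the fold change lay inside 2-fold either way. It reached 2-fold for 8, so for these 8 a difference of that size is not excluded at this number of arrays. For probe sets under the array medians, whose distance from background is unknown, an interval inside 2-fold does not exclude such a difference in transcript.

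**Figure D1:**
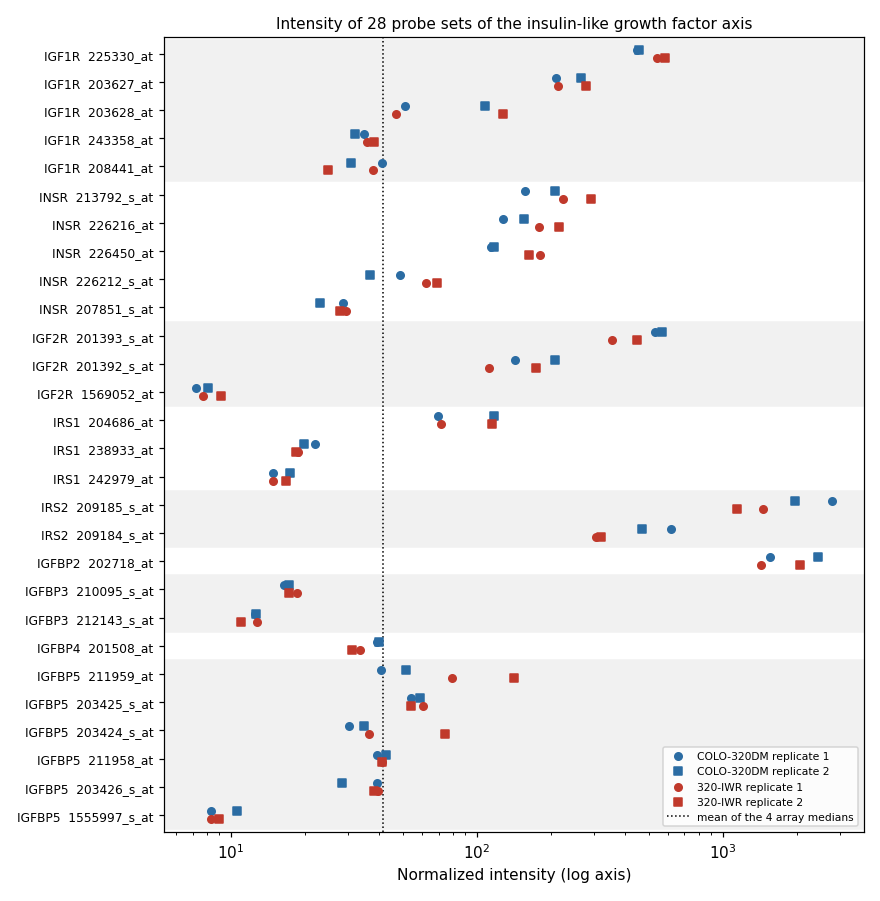
Normalized intensity (log axis) of the 28 member probe sets on each of the 4 arrays, with COLO-320DM in blue, 320-IWR in red, replicate 1 as circles and replicate 2 as squares. The dotted line is the mean of the 4 array medians, and 13 probe sets lie below it on average. The red points of both IRS2 probe sets lie left of the blue ones, and those of 4 of the 5 INSR probe sets lie right of them.

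The upstream sequences of INSR, IRS2, IGF2R and IGFBP5 are shown because these genes hold most of the larger differences of the axis. Each is the 250 bases before the annotated gene start in RefSeq on GRCh38.p14, read 5′ to 3′ on the gene's strand, with capitals marking GC boxes (GGGCGG, a binding motif of SP1) and E-boxes (CACGTG, a binding motif of MYC with MAX), each searched on both strands. Adjacent GC boxes overlap and run together in INSR, IRS2 and IGF2R.
INSR, chr19:7294415-7294664, minus strand: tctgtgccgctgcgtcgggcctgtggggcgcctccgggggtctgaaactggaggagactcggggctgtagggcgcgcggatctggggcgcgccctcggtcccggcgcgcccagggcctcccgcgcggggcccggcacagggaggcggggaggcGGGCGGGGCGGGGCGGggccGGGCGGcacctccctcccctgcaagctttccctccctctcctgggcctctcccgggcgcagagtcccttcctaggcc
IRS2, chr13:109786584-109786833, minus strand: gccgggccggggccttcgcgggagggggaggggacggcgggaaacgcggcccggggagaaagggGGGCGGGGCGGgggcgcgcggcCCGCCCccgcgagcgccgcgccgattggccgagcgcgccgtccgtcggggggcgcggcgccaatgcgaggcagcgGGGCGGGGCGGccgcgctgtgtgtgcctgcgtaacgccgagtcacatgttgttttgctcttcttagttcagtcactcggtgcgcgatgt
IGF2R, chr6:159968832-159969081, plus strand: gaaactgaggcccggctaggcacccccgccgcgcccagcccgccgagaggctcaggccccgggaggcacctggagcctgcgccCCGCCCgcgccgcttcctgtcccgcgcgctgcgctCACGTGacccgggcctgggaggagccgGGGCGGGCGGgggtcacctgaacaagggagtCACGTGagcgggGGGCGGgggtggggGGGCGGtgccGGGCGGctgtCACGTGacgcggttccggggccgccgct
IGFBP5, chr2:216695550-216695799, minus strand: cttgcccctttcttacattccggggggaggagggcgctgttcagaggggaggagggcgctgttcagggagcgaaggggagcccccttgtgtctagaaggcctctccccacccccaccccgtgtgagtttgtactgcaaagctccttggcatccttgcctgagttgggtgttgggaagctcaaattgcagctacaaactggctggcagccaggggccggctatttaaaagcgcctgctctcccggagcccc

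The GC box letters matched 4 times in the INSR window, 5 times in that of IRS2, 6 times in that of IGF2R and not in that of IGFBP5. Of 35116 promoter windows of the same length from all genes, 42.6% held at least 1 match. Unlike those of the members, these windows were not limited to the annotated gene start, so a gene may have several. E-box letters matched 3 times in the IGF2R window, against 6.34% of all windows with a match, and in no window of the other 8 measured genes. The letters CTTTGA of TCF/LEF factors and TGTTTAC of FOXO factors were in none of the 9 windows, and they were in 11.2% and 2.98% of all windows. The windows of INSR, IRS2 and IGF2R were 78.4%, 76.4% and 79.2% G or C and held 28, 42 and 33 CpG dinucleotides, while that of IGFBP5 was 61.2% G or C with 8 CpG. Over all windows the medians were 58% and 11 CpG. A match is a description of the letters, and the arrays measured no binding.

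IGF2 itself could not be read as a gene of its own. Of the 3 probe sets annotated jointly to INS-IGF2 and IGF2, 202409_at had 23.6 and 31.3 in COLO-320DM cells and 59.1 and 71.1 in 320-IWR cells, without overlap (log2 fold change 1.25, limma adjusted p = 0.124). 202410_x_at had 38.7 and 43.0 against 48.6 and 48.6 (log2 fold change 0.25), and 210881_s_at had 30.8 and 24.8 against 28.4 and 32.9 (log2 fold change 0.14). These values belong to neither gene alone and are not counted among the members.

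IGF1R, the type 1 IGF receptor gene (chromosome 15, 98648539 to 98964530 on GRCh38.p14), was higher in its brightest probe set by a small margin. 225330_at had 448 and 456 in COLO-320DM cells and 543 and 581 in 320-IWR cells, without overlap. The log2 fold change was 0.31 (standard error 0.12, 95% interval 0.005 to 0.62, limma adjusted p = 0.505). The second brightest, 203627_at, had 210 (210.1) and 266 against 214 and 279, a log2 fold change of 0.04, and thus did not show this difference. The third, 203628_at, had 51.0 and 108 against 46.9 and 128, and the gap between replicates was so wide that the 95% interval of its log2 fold change of 0.06 ran from -1.49 to 1.61. The other 2 probe sets had all intensities between 24.8 and 41.4 and log2 fold changes of 0.14 and -0.22. By the mean of all 5 probe sets the log2 fold change was 0.07.

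INSR, the insulin receptor gene (chromosome 19, 7112265 to 7294414), was higher in 320-IWR cells in all 5 probe sets, and in 4 of them the arrays of the lines do not overlap. The probe set 226450_at had 114 and 117 in COLO-320DM cells and 182 and 163 in 320-IWR cells. Its means were 116 ± 2.44 and 172 ± 13.4 (SD, n = 2 each), and the log2 fold change was 0.57 (standard error 0.13, 95% interval 0.24 to 0.90, limma adjusted p = 0.223). The replicates of each line lay much closer to each other than to the other line. The brightest probe set, 213792_s_at, had 157 and 208 against 224 and 293, with a log2 fold change of 0.51 (95% interval -0.06 to 1.07) that was 0.30 without COLO-320DM replicate 1 and 0.31 without 320-IWR replicate 2. For 226216_at the values were 128 and 156 against 179.8 and 215, with a log2 fold change of 0.48. For 226212_s_at they were 48.6 and 36.7 against 62.4 and 69.1, with a log2 fold change of 0.64. Only the dimmest, 207851_s_at, had overlapping arrays, at 28.5 and 23.2 against 29.4 and 27.9 (log2 fold change 0.16). The adjusted p of the 5 probe sets lay between 0.223 and 0.905 by limma. The 5 probe sets read transcripts of the same gene in the same RNA and are not independent replicates of the difference.

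IGF2R (chromosome 6, 159969082 to 160111504), which removes IGF2 from the cell surface, was lower in 320-IWR cells in its brightest probe set. 201393_s_at had 529 and 566 in COLO-320DM cells and 354 and 449 in 320-IWR cells. Both 320-IWR arrays thus lay below both COLO-320DM arrays, with a log2 fold change of -0.46 (standard error 0.16, 95% interval -0.88 to -0.03, limma adjusted p = 0.465). Without 320-IWR replicate 1 it was -0.29. In 201392_s_at the values of 143 and 207 against 112 and 174 overlap, with a log2 fold change of -0.30. The probe set 1569052_at, at 7.23 to 9.11 on all arrays, had 0.13. Because this dim probe set is the only one of IGF2R whose name does not end in _s_at, a rule that drops such names turns the sign of the gene.

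Both probe sets of IRS2 were lower in 320-IWR cells. IRS2 (chromosome 13, 109752695 to 109786583 on GRCh38.p14) encodes the docking protein that couples the insulin and IGF receptors to PI3 kinase. Its brighter probe set 209185_s_at had intensities of 2777 and 1976 on the COLO-320DM arrays and of 1466 and 1139 on the 320-IWR arrays. The lowest COLO-320DM array therefore lay above the highest 320-IWR array. The means were 2377 ± 566 and 1303 ± 231 (SD, n = 2 each), and the log2 fold change was -0.86 (standard error 0.23, 95% interval -1.45 to -0.26, limma adjusted p = 0.310). The second probe set, 209184_s_at, had 614 and 472 in COLO-320DM cells and 306 and 320 (319.7) in 320-IWR cells. These arrays do not overlap either, with a log2 fold change of -0.78 (standard error 0.17, 95% interval -1.22 to -0.34, limma adjusted p = 0.215). The 320-IWR level was thus 55.2% and 58.1% of that in COLO-320DM cells by the means of log2 values, which is less than a 2-fold difference. Of all probe sets, 2.71% had a larger absolute log2 fold change than the first.

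IRS1, the related docking protein gene on chromosome 2, showed no such difference in the brightest of its 3 probe sets. 204686_at had 69.9 and 118 in COLO-320DM cells and 71.8 and 116 in 320-IWR cells, so that replicate 2 was brighter than replicate 1 in both lines by more than the lines differed. The log2 fold change was 0.01, with a 95% interval from -0.90 to 0.92 (limma adjusted p = 1). The other 2 probe sets, with all intensities between 14.9 and 22.0, had log2 fold changes of -0.16 and -0.03. Whether IRS1 and IRS2 differ from each other in their change was not tested.

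**Figure D2:**
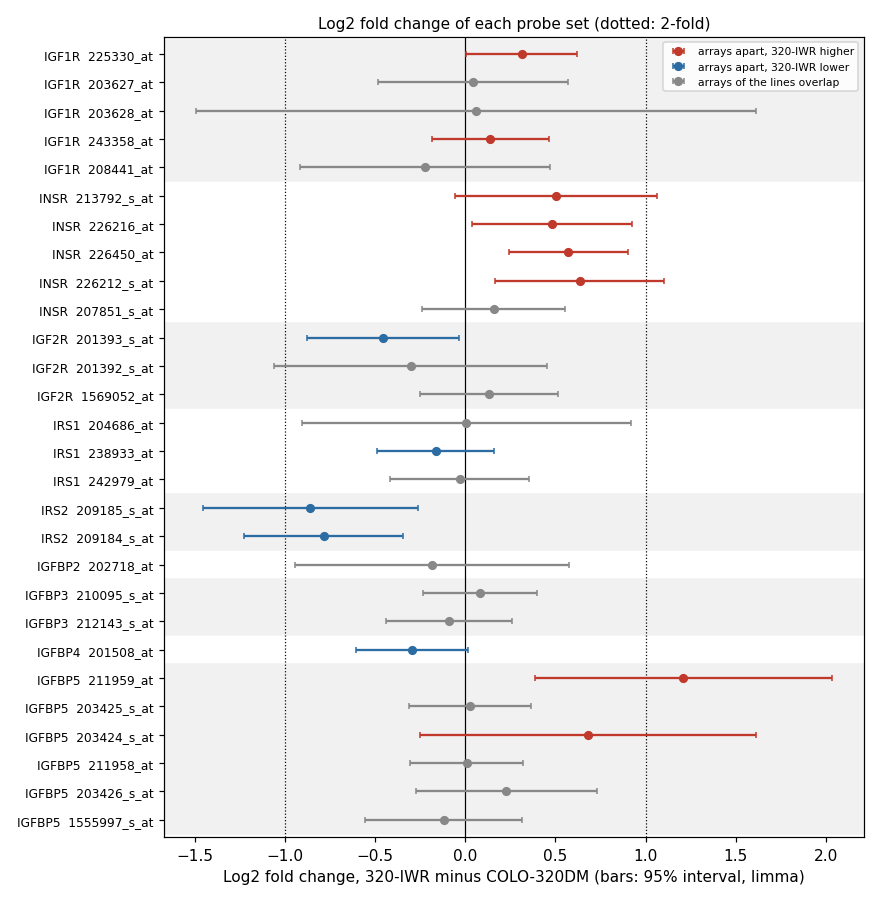
Log2 fold change (320-IWR minus COLO-320DM) of the 28 member probe sets with its 95% interval by limma, in red or blue where the arrays of the lines do not overlap and in grey where they do. Dotted lines mark 2-fold. The 211959_at probe set of IGFBP5, at 1.21, is the only point beyond 2-fold, and both IRS2 points lie at -0.86 and -0.78.

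Among the binding protein genes, IGFBP5 held the largest fold change of the 28 member probe sets, but its 6 probe sets disagreed. IGFBP5 encodes a matrix-associated binding protein. In 211959_at the intensities were 40.8 and 51.7 in COLO-320DM cells and 79.1 and 142 in 320-IWR cells. The 320-IWR arrays lay above both COLO-320DM arrays but far from each other, with means of 46.2 ± 7.73 and 111 ± 44.5 (SD, n = 2 each). The log2 fold change was 1.21 (standard error 0.32, 95% interval 0.38 to 2.03, limma adjusted p = 0.302), or 2.31-fold. Without 320-IWR replicate 2 it was 0.79. In 203424_s_at the values were 30.3 and 35.0 against 36.5 and 74.5, again without overlap and again with 320-IWR replicate 2 as the high array, and the log2 fold change of 0.68 was 0.16 without that array and 1.19 without 320-IWR replicate 1. The other 4 probe sets, 203425_s_at, 211958_at, 203426_s_at and 1555997_s_at, had overlapping arrays and log2 fold changes of 0.03, 0.01, 0.23 and -0.12. Their intensities were 54.0 to 60.4, 39.3 to 42.7, 28.3 to 39.9 and 8.29 to 10.6, beside array medians of 41.1 to 41.9. The distance of such dim values from background is unknown, so a small fold change there does not show an unchanged transcript. By the mean of all 6 probe sets the log2 fold change was 0.34. Which parts of the transcript the probe sets read was not analysed here.

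IGFBP2, whose gene lies 7668 bases from that of IGFBP5 on chromosome 2, was among the brighter probe sets of the array, with 96.8% of all probe sets dimmer by the mean over both lines. Its single probe set, 202718_at, had 1561 and 2437 in COLO-320DM cells and 1431 and 2061 in 320-IWR cells. The lines overlap, and replicate 2 was the brighter array in both. The log2 fold change was -0.18, with a 95% interval from -0.94 to 0.58 (limma adjusted p = 0.975). By brightest probe sets, the neighbouring genes IGFBP2 and IGFBP5 thus had values of opposite sign, a difference that was not tested. The sign of IGFBP2 was not stable, with 0.14 without COLO-320DM replicate 2 and 0.08 without 320-IWR replicate 1. The dimmest IGFBP5 probe set, 1555997_s_at, was negative as well (-0.12).

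IGFBP4, which encodes an inhibitory binding protein cleaved by PAPPA, had 39.3 and 40.1 in COLO-320DM cells and 33.5 and 31.3 in 320-IWR cells. Its arrays do not overlap, but all 4 values lie under the array medians, and the log2 fold change was -0.30 (95% interval -0.61 to 0.01, limma adjusted p = 0.544). IGFBP3, the main carrier of IGFs in serum, was at 11.0 to 18.5 on all arrays. Its 2 probe sets overlapped between the lines and had log2 fold changes of 0.08 and -0.09.

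Each member gene was set beside the 5 measured genes on either side of it on the chromosome, by brightest probe sets and in the order of GRCh38.p14. Of the 10 neighbours, 0 had a larger absolute log2 fold change than the member around IRS2, IGFBP4 and IGFBP5, 1 around INSR and IGF2R, 2 around IGF1R, 3 around IGFBP2, 5 around IGFBP3 and 9 around IRS1. Around IRS2, from NALF1-IT1 to NAXD, 8 of 10 neighbours were lower in 320-IWR cells, but their median log2 fold change was -0.06 and the lowest was -0.22, against -0.86 for IRS2. Around IGF2R, 8 of 10 neighbours were higher, opposite to IGF2R, with a median of 0.05, and MAP3K4, a MAP kinase kinase kinase gene, had 0.60 without overlap of the arrays. Around IGFBP5 the median was -0.02, with a range from -0.28 to 0.31. Near IGFBP3, with 0.08, TNS3, a tensin gene, had a log2 fold change of -2.75 (limma adjusted p = 0.111) and ADCY1, an adenylyl cyclase gene, one of -0.91. Around INSR on 19p13, 6 of 10 neighbours were higher. Of these, ARHGEF18, the next gene, had a log2 fold change of 0.48 and MCOLN1 one of 0.63, and in both the arrays of the lines do not overlap, while the median of the 10 was 0.05. None of the neighbours named here passed limma's test, whose background for brightest probe sets was 0.592%. Of all 19775 genes, 10723 were higher in 320-IWR cells. Many neighbours were dim, such as LPA near IGF2R, NALF1-IT1 near IRS2 and LOC105373876 near IGFBP5 (mean log2 of 2.59, 2.60 and 3.15). Because the distance of dim values from background is unknown, a small fold change of such a neighbour does not show an unchanged transcript.

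**Figure D3:**
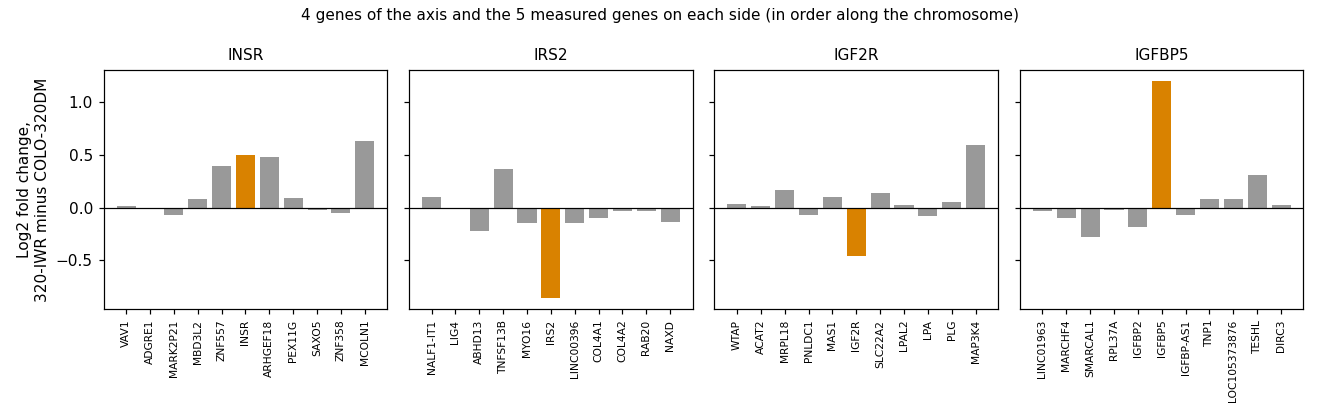
Log2 fold change (320-IWR minus COLO-320DM) of INSR, IRS2, IGF2R and IGFBP5 (orange) and of the 5 measured genes on each side in chromosomal order (grey), each by its brightest probe set. The bars of IRS2 at -0.86 and IGFBP5 at 1.21 exceed those of all their neighbours shown, while INSR at 0.51 and IGF2R at -0.46 are exceeded in size by MCOLN1 at 0.63 and MAP3K4 at 0.60.

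The other genes of insulin and IGF signaling were described through 8 lists with 87 genes, of which 80 had a probe set of their own, counted by their brightest probe sets. Of these 80 genes, 0 passed limma's test, against 0.592% of 19775 genes, and 11 had an unadjusted p under 0.05, against 12.3%. Their median log2 fold change was 0.00, and that of all genes was 0.02. H19 has only probe sets shared with another symbol, and the other listed genes without a value were not analysed here.

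Among 17 receptor adaptors and attenuators, 8 had arrays that do not overlap, 3 higher and 5 lower (over all genes the share without overlap was 38.6%). Of the 17, 5 had an unadjusted p under 0.05 by limma, 1 higher and 4 lower. Over all genes this share was 12.3% (5.91% higher and 6.36% lower). GRB10, an adaptor that binds the insulin and IGF1 receptors and restrains them, had 113 and 202 in COLO-320DM cells and 326 and 455 in 320-IWR cells. Its log2 fold change was 1.35 (standard error 0.33, limma adjusted p = 0.273), and the other 3 probe sets had 0.88, 1.29 and 0.42 with arrays that do not overlap. GRB14, a related inhibitor of the insulin receptor, was lower in 320-IWR cells, with 882 and 685 against 533 and 515 (log2 fold change -0.57, limma adjusted p = 0.350). GAB1, a docking protein related to the IRS proteins, had 219 and 162 against 124 and 96.0, a log2 fold change of -0.79 (limma adjusted p = 0.329). A second GAB1 probe set had -0.80 and the other 5 lay between -0.33 and 0.10.

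Of 11 measured genes of the IGF2 locus and its regulators, CDKN1C had the largest difference. CDKN1C is an imprinted gene near IGF2 on chromosome 11 and encodes the cell cycle inhibitor p57. Its intensities were 272 and 629 in COLO-320DM cells and 62.4 and 49.9 in 320-IWR cells, a log2 fold change of -2.89 (standard error 0.42, limma adjusted p = 0.111). Another 3 probe sets had -1.42, -2.25 and -1.70, and the dimmest had 0.03. Without COLO-320DM replicate 1, CDKN1C passed the test (limma adjusted p = 0.0478, log2 fold change -3.49), and it was the only gene of the 8 lists to pass under any of the 10 other settings. PLAGL1, a zinc finger factor that is itself imprinted, and IGF2BP3, which binds IGF2 mRNA, had log2 fold changes of -0.32 and -0.13 with arrays that do not overlap.

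The AKT and FOXO arm below the IRS proteins differed little. Its 10 measured genes, among them AKT1, AKT2, PDPK1, PIK3R1, FOXO1 and FOXO3, had log2 fold changes between -0.12 and 0.14, and none had an unadjusted p under 0.05 by limma. The 2 whose arrays do not overlap were INPPL1, a lipid phosphatase that opposes PI3 kinase (0.14), and PIK3CB, a PI3 kinase subunit (0.12). Of 15 genes that FOXO factors are known to induce, 3 were higher and 1 lower at an unadjusted p under 0.05 by limma, against 5.91% and 6.36% of all genes, and the list's median was 0.00. PDK4, a pyruvate dehydrogenase kinase gene, had 124 and 65.4 against 265 and 322, a log2 fold change of 1.70 (limma adjusted p = 0.186), with 1.29 and 0.52 in its other probe sets. BCL2L11, the apoptosis gene of BIM, had 0.52, and SESN3, a sestrin gene, had -0.62. The other probe sets of SESN3 disagreed in sign and lay between -0.35 and 0.17, with 0.17 and overlapping arrays in the second brightest.

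The remaining lists held smaller differences. Among 7 genes of GLUT4 vesicles, TBC1D4, the AKT substrate that holds these vesicles back, had 2222 and 1818 in COLO-320DM cells and 1356 and 1371 in 320-IWR cells (log2 fold change -0.56, limma adjusted p = 0.305). ASPSCR1 and RAB10, both also vesicle regulators, had -0.40 and 0.31. Of 6 further ligand and binding protein genes, IGFBP6, IGFALS and IGF1 had arrays that do not overlap, beside 38.6% of all genes. Their log2 fold changes were -0.29, 0.20 and 0.15, and the highest of their intensities was 55.1. Of 7 IGFBP proteases and their inhibitors, STC1, a stanniocalcin gene, had 0.33, and the list ran from -0.27 to 0.33. The 7 genes of mannose 6-phosphate sorting, the lysosomal route that IGF2R shares, lay between -0.11 and 0.21, and GNPTAB, which makes the tag, was at 0.21.

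**Figure D4:**
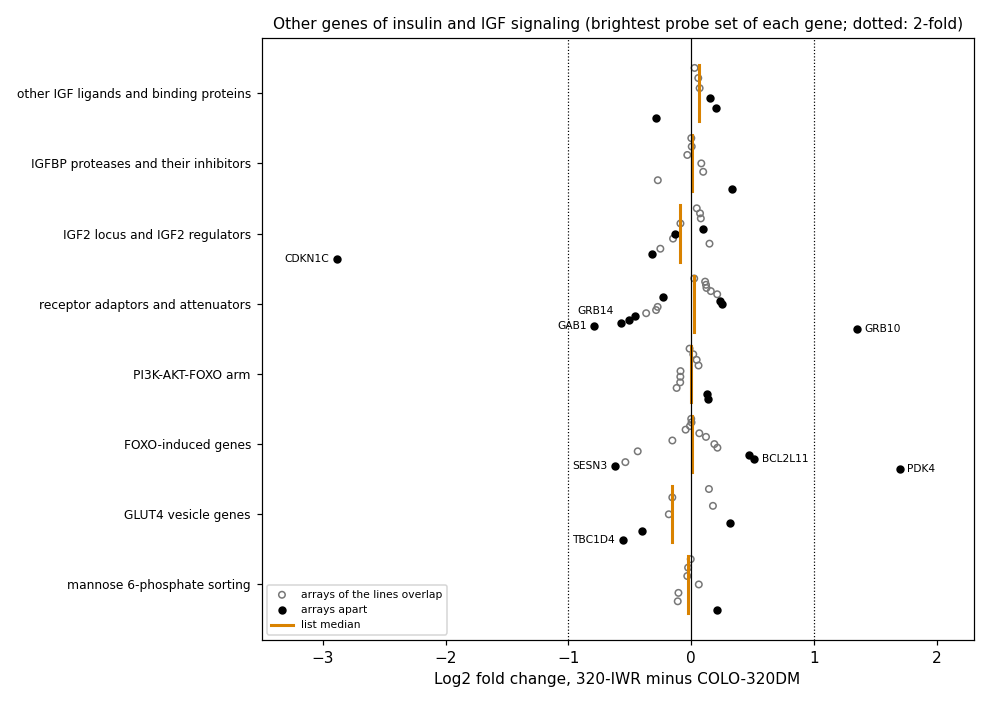
Log2 fold change (320-IWR minus COLO-320DM) of 80 other genes of insulin and IGF signaling in 8 lists, 1 point per gene by its brightest probe set, filled where the arrays of the lines do not overlap. Orange bars are list medians, between -0.15 and 0.06, and dotted lines mark 2-fold, which CDKN1C (-2.89), PDK4 (1.70) and GRB10 (1.35) exceed.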

How the data were processed

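According to the submitters' notes, the authors deposited probe set intensity values made with RMA (version not given in the sources used here). For normalization the paper cites GeneSpring GX. The values are linear, from 3.51 to 22475, and were taken to log2 with a floor of 1. Of 54675 probe sets, 62 controls were left out. Genes were named from the supplied platform annotation (41091 probe sets with 1 symbol, 1801 with several, 11721 with none; 0 symbols needed an update against GRCh38.p14), and 19775 genes were represented by their brightest probe sets.

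All 4 arrays were grouped by their titles and fitted with limma 3.58.1 in R 4.3.3 (lmFit and eBayes, cell line as the only term, no filter on dim probe sets), with p adjusted over all probe sets. The procedure was tested on simulated data with independent arrays, so the shared deviations of same-numbered arrays given below were not simulated. The alternatives were a block for the replicate number, fits without each array, cyclic loess, equal array medians, only probe sets whose mean log2 reached 6 in a line, a trended robust prior and no fold limit. For genes they were the mean of all probe sets, no names ending in _x_at or _s_at, and ratios of arithmetic means. Promoter windows came from RefSeq, and all 9 measured members matched.

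The members, gene lists and tests were chosen with earlier results of these data known. All probe sets of the members are named. In the wider lists, genes that passed are named, or otherwise up to 3 with the largest absolute fold change among those whose arrays do not overlap. The remaining genes named were chosen after their values were seen.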

Additional observations from a re-analysis of the deposited data

How the results depend on the processing

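No member probe set passed limma's test under the 10 other settings, of which the filter on dim probe sets tested only 14 of the 28. The block, that filter, the trended prior and the absence of a fold limit cannot move a fold change. In the 6 settings that can, 16 of the 28 kept their sign, those of IRS2 and INSR included, and 20 of 168 values had the opposite sign. Leaving out 1 array turned 21 of the 28 or moved them over 1.5 times. With the replicate number as a block, the lowest adjusted p of a member was 0.0551, for IRS2 209185_s_at, while calls over all probe sets went from 202 to 576. Under the block, 12 of the 28 members had an unadjusted p under 0.05 by limma, against 11181 of all 54613 probe sets. Same-numbered arrays deviated together from their line means (r = 0.66 across probe sets, which are not independent). Among probe sets whose mean log2 reached 6 in a line, r was 0.80. However, 2 numbers without a stated shared source do not establish pairs. Leaving out 1 array gave 0 to 63 calls over all probe sets (0 without either 320-IWR array, with 3756 and 3502 at an unadjusted p under 0.05), 0 among the members, and 0 to 1 in the wider lists, that 1 being CDKN1C without COLO-320DM replicate 1. Where an array was left out, its line's spread was taken from the other line. Leaving out 1 array moved the log2 fold change of IGF1R 203627_at between -0.15 and 0.24, 203628_at between -0.66 and 0.78, and 208441_at between -0.53 and 0.086. The ranges were -0.62 to 0.012 for IGF2R 201392_s_at, -0.37 to 0.38 for IRS1 204686_at, -0.14 to 0.084 for IRS1 242979_at, -0.51 to 0.14 for IGFBP2 202718_at and -0.20 to 0.016 for IGFBP3 212143_s_at. For IGFBP5 they were -0.051 to 0.10 (203425_s_at), -0.051 to 0.069 (211958_at), -0.011 to 0.47 (203426_s_at) and -0.30 to 0.058 (1555997_s_at). Cyclic loess turned IRS1 204686_at to -0.0025 and IGFBP5 211958_at to -0.0064. By gene, IGF2R without names ending in _x_at or _s_at had 0.13, IRS1 had -0.061 by the mean of its probe sets and -0.00067 by arithmetic means, and IGFBP3 had -0.0033 by the mean of its probe sets. Apart from the IGF2R value, where only the dimmest probe set was left, the cause was not tested. Probe sets under the array medians have an unknown distance from background.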
